A study of Mus musculus with 4 samples.

Results

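The late activity-regulated genes of neurons were followed across the neuron classes of mouse hippocampus: Bdnf, Nptx1, Nptx2, Homer1, Inhba, Penk, Vgf, Scg2 and Pcsk1. They were chosen by symbol as known members of this group, and all 9 were among the 55403 features counted. Unique molecular identifiers (UMIs) were summed per library over nuclei that resembled a neuron class by marker genes, which gave 6049 neuron nuclei of 29616 kept.

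Late activity-regulated genes are switched on in neurons after the immediate early transcription factors, such as Fos and Npas4, and their products act at synapses or are secreted. Calcium entry through synaptic receptors activates kinases that act on CREB and related factors, and CREB binds the cAMP response element in target promoters. In the hippocampus these genes are known for their link to synaptic plasticity, and the dentate gyrus is the classical place where they rise after seizures.

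The nuclei came from frozen, pooled hippocampus of littermate mice in 3 groups. WT, sampled by 1 library, carried no transgene. PS19, sampled by 2 libraries, carried the P301S mutant human tau transgene (MAPT, 1N4R form) under the mouse prion protein (Prnp) promoter on a B6;C3 background, and serves as a model of tau pathology. TG_PS19, sampled by 1 library, carried the same tau transgene and in addition a transgene at Rosa26 for human SORLA (SORL1), which sorts cargo between endosomes and the Golgi, driven by a CMV/β-actin promoter that is not restricted to neurons. The number, age and sex of the pooled animals are not given in the sources used here. No label says that the PS19 pair stems from different pools, so p-values measure only the spread between these libraries, which may be technical. That spread was largely pooled over the genes of a class, not taken from each gene alone. Levels are CPM, the UMIs of a gene divided by the sum of UMIs of that class and library and multiplied by 1000000, with exact 95% Poisson intervals that cover counting error only.

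The 4 libraries held 4643 to 12762 barcodes and 20064025 to 48670533 UMIs, with medians of 2643 to 3708.5 UMIs per barcode. Pairs of libraries shared 5 to 32 barcode sequences. Dentate granule-like nuclei numbered 1604 in WT, 484 and 537 in the PS19 libraries and 995 in TG_PS19. CA1 pyramidal-like nuclei numbered 234, 68, 67 and 171, other excitatory nuclei (CA3 or hilar and subicular or cortical clusters) 292, 157, 181 and 392, inhibitory nuclei 174, 50, 77 and 145, and Cajal-Retzius-like nuclei 169, 69, 66 and 117, in the same order. Among the inhibitory nuclei, 2 sub-clusters (18 and 10 of 446 nuclei) had oligodendrocyte or astrocyte markers among their leading genes and none of the inhibitory lists, and another (23 nuclei) had 1 marker of oligodendrocyte precursors. The tests in this class were repeated without them. All 9 dentate granule markers and all 8 CA1 markers had UMIs in their class in every library, with summed levels of 3292 to 3431 CPM and of 2282 to 2389 CPM. In dentate granule nuclei human MAPT had 0 UMIs in the WT library, against 25.01, 27.8 and 18.4 CPM in the libraries that carry tau, and human SORL1 had UMIs (32.3 CPM) in the TG_PS19 library alone. Xist, the RNA of the inactive X chromosome, marked 703 of the 995 TG_PS19 dentate granule nuclei while 214 carried Y-linked UMIs, against 1 nucleus with Xist alone in each of WT and PS19 replicate 1 and none in PS19 replicate 2. Sex and genotype cannot be told apart between TG_PS19 and the other libraries, and values within the Y-called nuclei are given for the members called in TG_PS19, for Homer1, Vgf and Nptx1, and as counts for the gene lists.

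Promoters are shown for the members that have one on file, to set the elements through which activity acts beside the levels that follow. Of the 9 genes, 5 had a RefSeq promoter row (GRCm38.p6, 250 bases before to 50 after a start, 5′ to 3′ on the gene's strand), with 7 starts for Bdnf and 2 for Homer1. Nptx1, Nptx2, Penk and Vgf had no match. Capitals mark the cAMP response element TGACGTCA or its core TGACG, searched on both strands, so that a core on the opposite strand reads CGTCA. Scg2 is at chr1:79439977-79440276 on the minus strand, Pcsk1 at chr13:75089607-75089906, Homer1 at chr13:93303507-93303806, the Bdnf start shown at chr2:109692186-109692485 and Inhba at chr13:16011601-16011900, these 4 on the plus strand.
Scg2: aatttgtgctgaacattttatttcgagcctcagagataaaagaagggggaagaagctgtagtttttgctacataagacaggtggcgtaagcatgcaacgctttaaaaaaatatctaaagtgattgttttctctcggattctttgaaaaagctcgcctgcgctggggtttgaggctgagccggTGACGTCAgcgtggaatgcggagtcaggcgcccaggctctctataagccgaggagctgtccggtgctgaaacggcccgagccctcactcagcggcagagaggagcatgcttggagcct
Pcsk1: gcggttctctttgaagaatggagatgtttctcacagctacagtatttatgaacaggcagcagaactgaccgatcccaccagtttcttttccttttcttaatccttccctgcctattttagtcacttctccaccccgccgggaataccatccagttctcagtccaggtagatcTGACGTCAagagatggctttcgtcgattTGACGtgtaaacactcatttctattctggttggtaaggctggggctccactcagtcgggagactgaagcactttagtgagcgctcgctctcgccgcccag
Homer1: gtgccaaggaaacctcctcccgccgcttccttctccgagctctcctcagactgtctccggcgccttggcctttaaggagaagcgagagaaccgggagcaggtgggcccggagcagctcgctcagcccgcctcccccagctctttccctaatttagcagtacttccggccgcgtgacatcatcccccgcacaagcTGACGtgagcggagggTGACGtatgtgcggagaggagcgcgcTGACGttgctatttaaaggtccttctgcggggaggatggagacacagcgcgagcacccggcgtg
Bdnf: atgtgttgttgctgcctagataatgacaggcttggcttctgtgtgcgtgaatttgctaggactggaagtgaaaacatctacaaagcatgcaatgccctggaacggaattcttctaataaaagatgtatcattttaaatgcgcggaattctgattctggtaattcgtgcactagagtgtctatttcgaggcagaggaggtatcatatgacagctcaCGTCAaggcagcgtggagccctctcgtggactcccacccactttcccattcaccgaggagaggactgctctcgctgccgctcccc
Inhba: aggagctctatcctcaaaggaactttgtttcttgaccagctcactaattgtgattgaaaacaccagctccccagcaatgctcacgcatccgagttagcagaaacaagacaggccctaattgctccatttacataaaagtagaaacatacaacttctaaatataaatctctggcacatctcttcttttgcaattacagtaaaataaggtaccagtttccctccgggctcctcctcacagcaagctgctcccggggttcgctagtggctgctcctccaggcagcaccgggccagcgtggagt
The whole TGACGTCA was found in the Scg2 window, from base -68 relative to the start, and in the Pcsk1 window, from base -78. It is in 1.79% of the 32851 promoter windows of the table, and its core, which overlaps it by construction, is in 20.8%. Of all 12 windows of these genes, 2 held the whole element and 4 the core. The Homer1 window shown held 3 cores and the Bdnf window shown 1, from base -35. The other Homer1 window, the other 6 Bdnf windows and the Inhba window held neither. The AP-1 element TGANTCA, present in 7.81% of windows, was found in 1 other Bdnf window and in none of those shown, and the EGR elements GCGTGGGCG or GCGGGGGCG, present in 3.47%, in none of the 12. These matches describe letters in a window of 300 bases.

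The genes differed in their order of neuron classes, with ranges that often overlapped. Bdnf, which encodes the neurotrophin that acts on TrkB, lay at 61.5 to 104 CPM over the 4 libraries in dentate granule nuclei, above 29.5 to 45.0 CPM in CA1 and 21.1 to 39.9 CPM in other excitatory nuclei, the latter pair overlapping. It was at 0 to 7.60 CPM in inhibitory nuclei. Nptx1, a neuronal pentraxin that gathers AMPA receptors at synapses, was also highest in dentate granule nuclei at 72.0 to 94.4 CPM. Cajal-Retzius-like nuclei (29.5 to 51.9 CPM) and other excitatory nuclei (32.2 to 40.9 CPM) overlapped behind it. Nptx2, its activity-induced relative, was sparse everywhere, with 9.26 to 14.2 CPM in CA1 and ranges in the other classes that reached into each other. In PS19 replicate 1 inhibitory and Cajal-Retzius-like nuclei reached into the CA1 range, on 5 and 2 UMIs.

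Homer1, a scaffold that links metabotropic glutamate receptors to Shank proteins, stood at 276 to 359 CPM in CA1 and at 161 to 222 CPM in other excitatory nuclei, ranges that did not meet. Inhibitory (76.9 to 93.7 CPM) and dentate granule nuclei (64.5 to 89.7 CPM) overlapped below them. The 3′ counts do not separate the short, activity-induced Homer1 form from the long forms. Inhba, which encodes the βA subunit of activin and inhibin, was at 84.5 to 175 CPM in dentate granule and 62.5 to 142 CPM in CA1 nuclei, ranges that overlapped. Within other excitatory nuclei it was higher in the CA3 or hilar cluster (44.2 to 102 CPM) than in the subicular or cortical clusters of the same library (17.7 to 56.5 CPM) in 4 of 4 libraries.

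The peptide genes differed in order among themselves. Penk, the precursor of the enkephalins, was highest in Cajal-Retzius-like nuclei at 28.5 to 55.4 CPM, followed by inhibitory nuclei at 10.3 to 30.4 CPM, with overlap. Among inhibitory nuclei it had 36 UMIs in the 92 Adarb2-type nuclei and 0 UMIs in the 87 Lhx6-type nuclei, all libraries summed, which allows up to 3.49 CPM in the latter. The whole inhibitory class had 23, 16, 10 and 21 Penk UMIs in WT, the PS19 libraries and TG_PS19. Those outside the Adarb2 type thus lay in inhibitory nuclei whose subtype was not named. Vgf, a granin-like peptide precursor, was at 23.6 to 45.6 CPM in inhibitory and at 16.9 to 28.1 CPM in other excitatory nuclei, with overlap, and at 2.54 to 6.08 CPM in dentate granule nuclei. Scg2, a granin and the precursor of secretoneurin, overlapped between dentate granule (56.1 to 113 CPM) and inhibitory nuclei (51.9 to 123 CPM). Pcsk1, a prohormone convertase that cuts such precursors in dense-core vesicles, was at 19.5 to 38.4 CPM in other excitatory and at 14.4 to 31.2 CPM in inhibitory nuclei, and at 1.35 to 3.39 CPM in dentate granule nuclei.

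**Figure D1:**
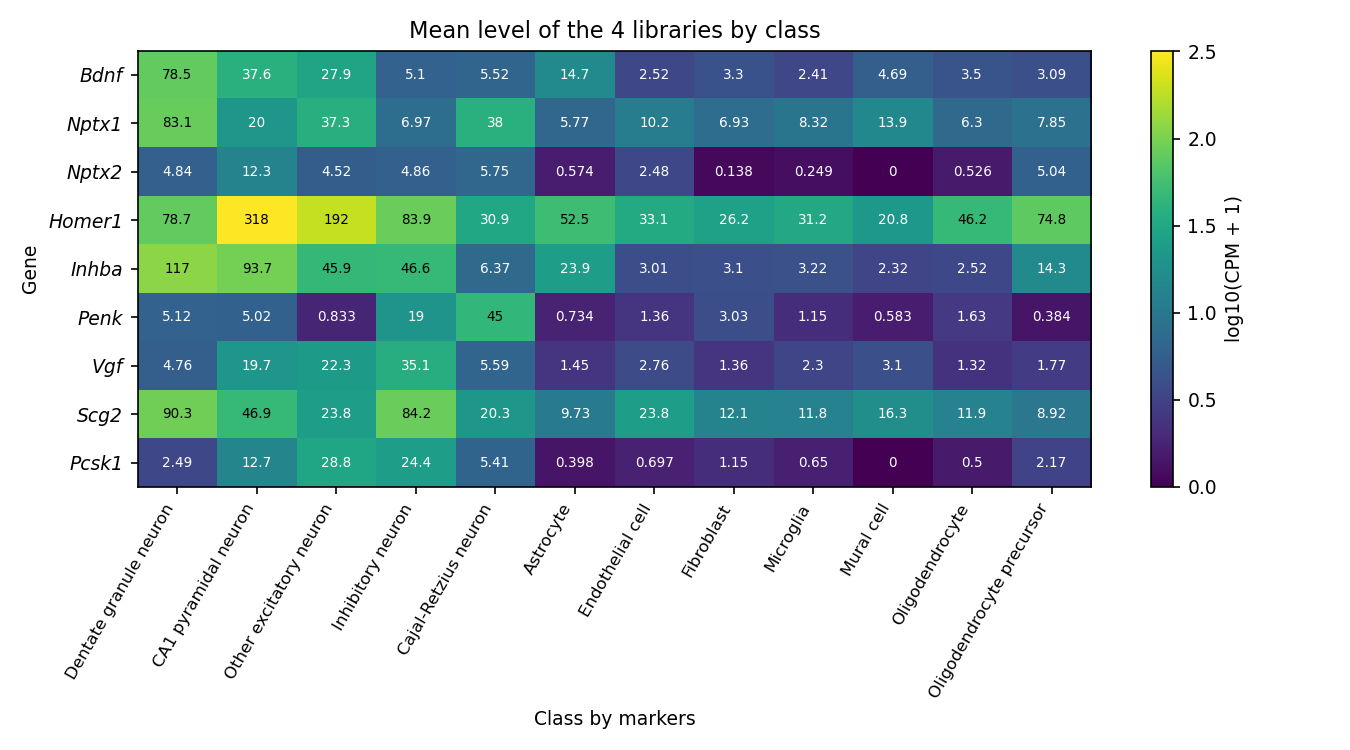
Mean level of each gene (rows) in each class (columns) over the 4 libraries, in CPM as printed in the cells, with colour on a log10(CPM + 1) scale. Bdnf reaches 78.5 CPM in dentate granule nuclei, Homer1 318 CPM in CA1 nuclei and Penk 45.0 CPM in Cajal-Retzius-like nuclei.

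Free RNA and a cell's own RNA were not separated, so levels in oligodendrocytes are set beside the neuronal ones. There Bdnf was at 8.14 CPM in WT against 2.08, 1.67 and 2.11 CPM in PS19 replicate 1, PS19 replicate 2 and TG_PS19. Penk was at 4.36 CPM in WT against 0.624, 0.167 and 1.36 CPM, and Scg2 at 21.8 CPM in WT against 9.57, 6.66 and 9.66 CPM. WT was thus the highest library for these 3 genes in oligodendrocytes, and the part of this in their neuronal differences was not tested. Other classes outside neurons differed from oligodendrocytes: over the 4 libraries Scg2 averaged 23.8 CPM in endothelial cells against 11.9 CPM in oligodendrocytes, and Inhba 23.9 CPM in astrocytes against 2.52 CPM. In astrocytes Bdnf was at 10.6, 26.4, 16.4 and 5.51 CPM in WT, the PS19 libraries and TG_PS19, with PS19 highest. In oligodendrocytes Inhba was at 3.20, 1.46, 1.499 and 3.93 CPM in WT, the PS19 libraries and TG_PS19. TG_PS19 was thus highest there too, and the part of this in the neuronal differences of Inhba was not tested. Homer1 was at 40.3 to 52.3 CPM in oligodendrocytes, beside 64.5 to 89.7 CPM in dentate granule nuclei. Within dentate granule nuclei, the summed astrocyte markers were also highest in WT, at 352 CPM against 206, 192 and 258 CPM in PS19 replicate 1, PS19 replicate 2 and TG_PS19, and their part in these results was not tested.

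The comparison of PS19 with WT describes what goes with the tau transgene. Of 37 gene and class pairs that passed the low-count filter (8 more did not), 4 fell and 0 rose at an adjusted p under 0.05 by edgeR's quasi-likelihood test with Benjamini-Hochberg adjustment, beside 1.22% of all pairs tested. The calls were Bdnf, Inhba and Penk in dentate granule nuclei (3 of 9 genes, where 3.07% of all genes were called) and Pcsk1 in other excitatory nuclei (1 of 8, where 0.975% were). None of 8 was called in CA1 nuclei, where 0.448% of genes were, none of 8 in inhibitory nuclei (0.258%) and none of 4 in Cajal-Retzius-like nuclei (0.174%). At an unadjusted p under 0.05 the numbers were 2, 2 and 0. The median log2 fold change of the 9 genes in dentate granule nuclei was -0.22, where that of all genes was 0.00337.

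In dentate granule nuclei Bdnf stood at 104 CPM (97.7 to 109.7) for WT, 76.4 CPM (68.5 to 85.0) and 72.6 CPM (65.9 to 79.8) for the PS19 libraries and 61.5 CPM (56.3 to 67.1) for TG_PS19. WT lay above the other 3 libraries and the PS19 pair differed little. PS19 against WT gave a log2 fold change of -0.46 (SE 0.11, edgeR adjusted p = 0.0032). In CA1 nuclei Bdnf was at 45.0, 36.4, 39.3 and 29.5 CPM in WT, the PS19 libraries and TG_PS19, the same order of groups, and none of its comparisons was called. In other excitatory nuclei it was at 39.9, 28.2, 21.1 and 22.4 CPM, with -0.76 (SE 0.23, edgeR adjusted p = 0.0725) for PS19 against WT.

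Penk had 97 UMIs in WT dentate granule nuclei, or 8.71 CPM (7.06 to 10.6), and 18 and 19 UMIs in the PS19 libraries, or 4.06 CPM (2.404 to 6.41) and 3.22 CPM (1.94 to 5.03). WT was the highest library and TG_PS19, at 4.47 CPM, lay near the PS19 pair. PS19 against WT gave a log2 fold change of -1.26 (SE 0.32, edgeR adjusted p = 0.0061), and -2.94 with each nucleus thinned to 2000 UMIs. WT oligodendrocytes had 4.36 CPM against 0.624 and 0.167 CPM in PS19, and the part of this in the difference was not tested. The start of Penk (chr4:4133531-4138819, GENCODE M21, GRCm38, minus strand) overlaps A830012C17Rik on the other strand (chr4:4138321-4188703). Whether counting used strand is not stated, so reads in the overlap cannot be told apart, and A830012C17Rik fell too in dentate granule nuclei (-1.49, SE 0.34, edgeR adjusted p = 0.00095). In TG_PS19 against PS19 A830012C17Rik rose in these nuclei (1.08, SE 0.37, edgeR adjusted p = 0.0451), where Penk was not called.

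Pcsk1 in other excitatory nuclei was at 38.4, 26.2, 19.5 and 31.1 CPM in WT, the PS19 libraries and TG_PS19, with WT highest and TG_PS19 between the groups. PS19 against WT gave -0.81 (SE 0.23, edgeR adjusted p = 0.0426). Restricted to the subicular or cortical clusters, which hold more of this class in TG_PS19 (320 of 392 nuclei) than in WT (196 of 292), Pcsk1 was at 57.9, 40.1, 25.8 and 40.2 CPM and was not called. Of 12 alternatives, that one included, 4 kept the call of Pcsk1. After thinning to 2000 UMIs its value was -0.16. With DESeq2 in place of edgeR none of the 37 pairs was called in PS19 against WT, with 2 at an unadjusted p under 0.05, beside 12 by edgeR.

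TG_PS19 against PS19 sets the library with added SORLA beside those with the tau transgene alone. They also differ in the share of nuclei called by Xist, so SORLA and sex cannot be told apart here. Inhba rose in all 3 excitatory classes, by about 2-fold, while Scg2 and Nptx2 fell in dentate granule nuclei. These were 5 of 37 pairs (3 higher, 2 lower), beside 4.08% of all pairs tested. By class they were 3 of 9 in dentate granule nuclei (8.93% of all genes), 1 of 8 in CA1 (2.19%) and 1 of 8 in other excitatory nuclei (4.34%). There were none in inhibitory nuclei (0.686%) and none in Cajal-Retzius-like nuclei (0.603%), also at an unadjusted p under 0.05. This comparison shares the PS19 libraries with the one above.

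Inhba in dentate granule nuclei stood at 117 CPM (110.5 to 123) for WT, 84.5 CPM (76.2 to 93.5) and 92.5 CPM (84.9 to 101) for the PS19 libraries and 175 CPM (166 to 184) for TG_PS19. No interval of one group met that of another. On the log2 scale the change was -0.38 (SE 0.11, edgeR adjusted p = 0.0247) for PS19 against WT, 1.07 (SE 0.11, edgeR adjusted p = 1.5e-20) for TG_PS19 against PS19 and 0.70 (SE 0.12, edgeR adjusted p = 7.1e-07) for TG_PS19 against WT. The first of these was lost with doublets kept (edgeR adjusted p = 0.0673). In CA1 nuclei it was at 97.8, 62.5, 72.0 and 142 CPM, and in other excitatory nuclei at 47.6, 36.3, 30.7 and 69.2 CPM, in WT, the PS19 libraries and TG_PS19. The order of the groups was thus the same in all 3 classes, with TG_PS19 highest and PS19 lowest. TG_PS19 against PS19 gave 1.19 (SE 0.20, edgeR adjusted p = 1.2e-06) in CA1 and 1.14 (SE 0.18, edgeR adjusted p = 2.2e-07) in other excitatory nuclei. With DESeq2 the adjusted p in CA1 was 0.145, and DESeq2 gave none in other excitatory nuclei, where the call was also lost after thinning to 2000 UMIs. In the CA3 or hilar cluster Inhba was at 62.7, 58.3, 44.2 and 102 CPM and in the subicular or cortical clusters at 32.5, 17.7, 19.5 and 56.5 CPM, again with TG_PS19 highest in both.

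Within TG_PS19 dentate granule nuclei, Inhba was at 181 CPM (171 to 193) in the 703 nuclei called by Xist and at 160.1 CPM (143 to 179) in the 214 called by Y-linked UMIs, both above WT and PS19. With the Y-called nuclei alone as the TG_PS19 sample, Inhba kept its call against PS19 in all 3 excitatory classes. The share of dentate granule nuclei with an Inhba UMI, after thinning each nucleus to 2000 UMIs, was 21.6% (exact interval 19.6 to 23.7) for WT, 16.3% (13.1 to 19.9) and 18.6% (15.4 to 22.2) for the PS19 libraries and 29.7% (26.9 to 32.7) for TG_PS19, with 15, 0, 0 and 6 nuclei left out. Unthinned shares were 52.6%, 48.3%, 62.2% and 70.7% at median depths of 6485.5, 8673, 10256 and 7678 UMIs. Thinned oligodendrocytes, with unthinned medians of 1958.5, 2429, 3030.5 and 2013 UMIs, gave 0.567%, 0.226%, 0.236% and 0.71%, with 1740, 514, 176 and 1501 nuclei left out. At equal depth the share of nuclei with an Inhba UMI was thus highest in TG_PS19.

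Inhba (chr13:16011851-16031621, plus strand) is overlapped on the other strand by B230303A05Rik (chr13:15813548-16023423) and, at its 3′ end, by Gm48444 (chr13:16025382-16032275), which had 1 to 4 UMIs per library in dentate granule nuclei. B230303A05Rik was at 1284, 1061, 1203 and 1232 CPM in dentate granule nuclei of WT, the PS19 libraries and TG_PS19, and its change of 0.22 (SE 0.11, edgeR adjusted p = 0.226) for TG_PS19 against PS19 was not called. It was not called in CA1 or other excitatory nuclei in any comparison.

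**Figure D2:**
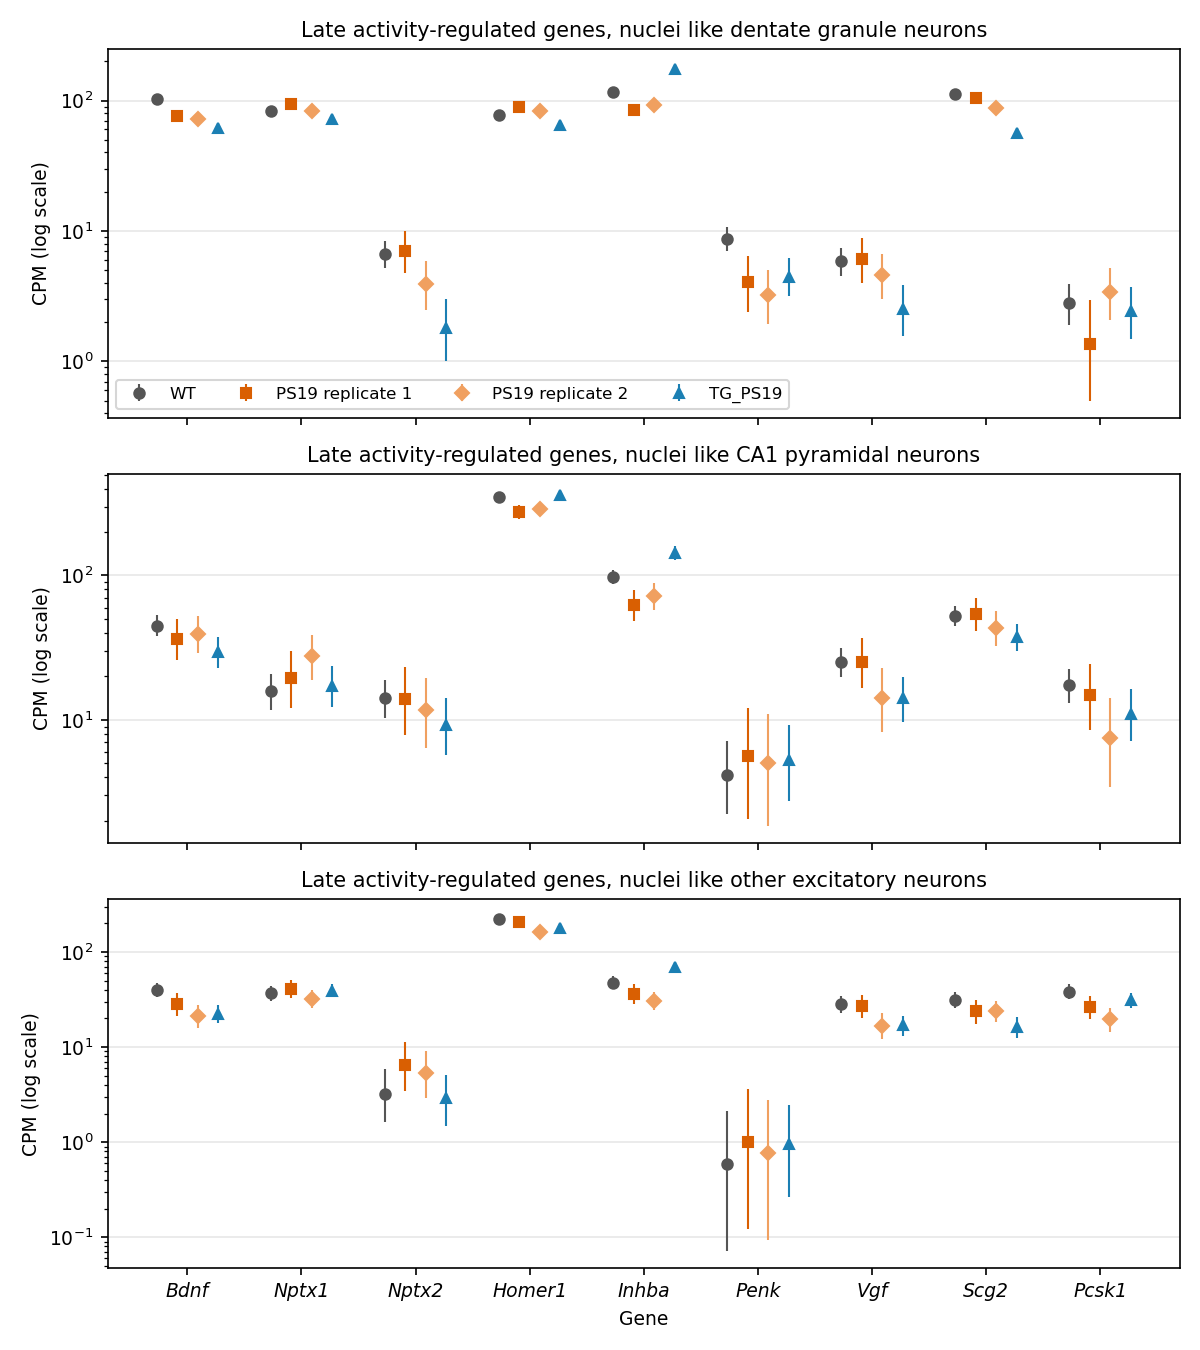
Level in CPM (log axis) of each gene in 3 excitatory classes, 1 point per library with its exact 95% Poisson interval. TG_PS19 is the highest library for Inhba in each panel, and the lowest for Scg2 in each.

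For Scg2 in dentate granule nuclei, WT gave 113 CPM (107 to 119), the PS19 libraries 105 CPM (95.5 to 115) and 87.4 CPM (79.99 to 95.3) and TG_PS19 56.1 CPM (51.1 to 61.4). TG_PS19 lay below the other 3, and the intervals of WT and PS19 replicate 1 overlapped. TG_PS19 changed by a log2 value of -0.67 (SE 0.12, edgeR adjusted p = 2.3e-06) against PS19 and -0.89 (SE 0.13, edgeR adjusted p = 2.4e-09) against WT. In the other classes TG_PS19 was lowest too, apart from Cajal-Retzius-like nuclei: CA1 gave 52.4, 54.1, 43.5 and 37.5 CPM in WT, the PS19 libraries and TG_PS19. Inhibitory nuclei gave 123, 93.1, 68.7 and 51.9 CPM, with -1.17 (SE 0.29, edgeR adjusted p = 0.096) for TG_PS19 against WT. Without the 2 inhibitory sub-clusters led by glial genes that edgeR adjusted p was 0.176 (-1.31), where 0.236% of all genes were called. Leaving out the sub-cluster with 1 such marker as well gave 0.00366 for Scg2 (-1.34) and 0.0281 for Inhba (1.35) against WT. These were 2 of 7 genes, beside 1.87% of all genes. Inhba was at 1.42 in the first repeat. The log2 values thus differed little between the repeats, as did the SE of Scg2 (0.29 and 0.32). Its unadjusted edgeR p against WT nevertheless went from 0.000998 to 2.9e-05. The new calls came with more calls over all genes (0.236% and then 1.87%), and why the calls changed was not tested. In both repeats edgeR called 0 of 7 genes in PS19 against WT, with 2 at an unadjusted p under 0.05, beside 0.101% and 0.57% of all genes. In TG_PS19 against PS19 it also called 0 of 7, with 1 at an unadjusted p under 0.05, beside 0.186% and 1.84%. Inhba in the second repeat was at 26.7, 57.2, 41.9 and 64.5 CPM in WT, the PS19 libraries and TG_PS19. WT was thus lowest, whereas PS19 was lowest in the excitatory classes. Its log2 value was 0.87 for PS19 against WT and 0.49 for TG_PS19 against PS19. Before any were left out, 1 inhibitory nucleus held 16 of the 29 Inhba UMIs of PS19 replicate 1. The Y-called inhibitory nuclei gave -0.03 for Inhba against PS19. The Y-called TG_PS19 dentate granule nuclei had 45.5 CPM (36.5 to 56.1) of Scg2 and the Xist-called ones 59.2 CPM (53.1 to 65.9), both below WT and PS19.

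The share of dentate granule nuclei with a Scg2 UMI after thinning to 2000 UMIs was 21.6% (19.6 to 23.7) for WT, 19.01% (15.6 to 22.8) and 16.6% (13.5 to 19.99) for the PS19 libraries and 11.6% (9.70 to 13.8) for TG_PS19. Unthinned shares were 48.8%, 55.6%, 52.0% and 35.2%. Thinned oligodendrocytes gave 4.03%, 1.88%, 1.53% and 1.74%.

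Nptx2 in dentate granule nuclei rested on 74, 31, 23 and 15 UMIs in WT, the PS19 libraries and TG_PS19, or 6.65, 6.99, 3.90 and 1.81 CPM. TG_PS19 was lowest, and 1 nucleus held 22.6% of the UMIs of PS19 replicate 1. TG_PS19 gave -1.44 (SE 0.45, edgeR adjusted p = 0.0193) against PS19 and -1.75 (SE 0.44, edgeR adjusted p = 0.003) against WT. DESeq2 gave no adjusted p for either, and neither was called with the 3 UMIs of the Y-called nuclei alone. Vgf was lowest in TG_PS19 as well, at 5.84, 6.08, 4.58 and 2.54 CPM, and was not called (-0.95, SE 0.42, edgeR adjusted p = 0.152 against PS19). Nptx1 in the same nuclei was at 83.3, 94.4, 82.8 and 72.0 CPM and was called in no comparison. The Y-called TG_PS19 nuclei had 2.62 CPM of Vgf and 69.1 CPM of Nptx1.

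**Figure D3:**
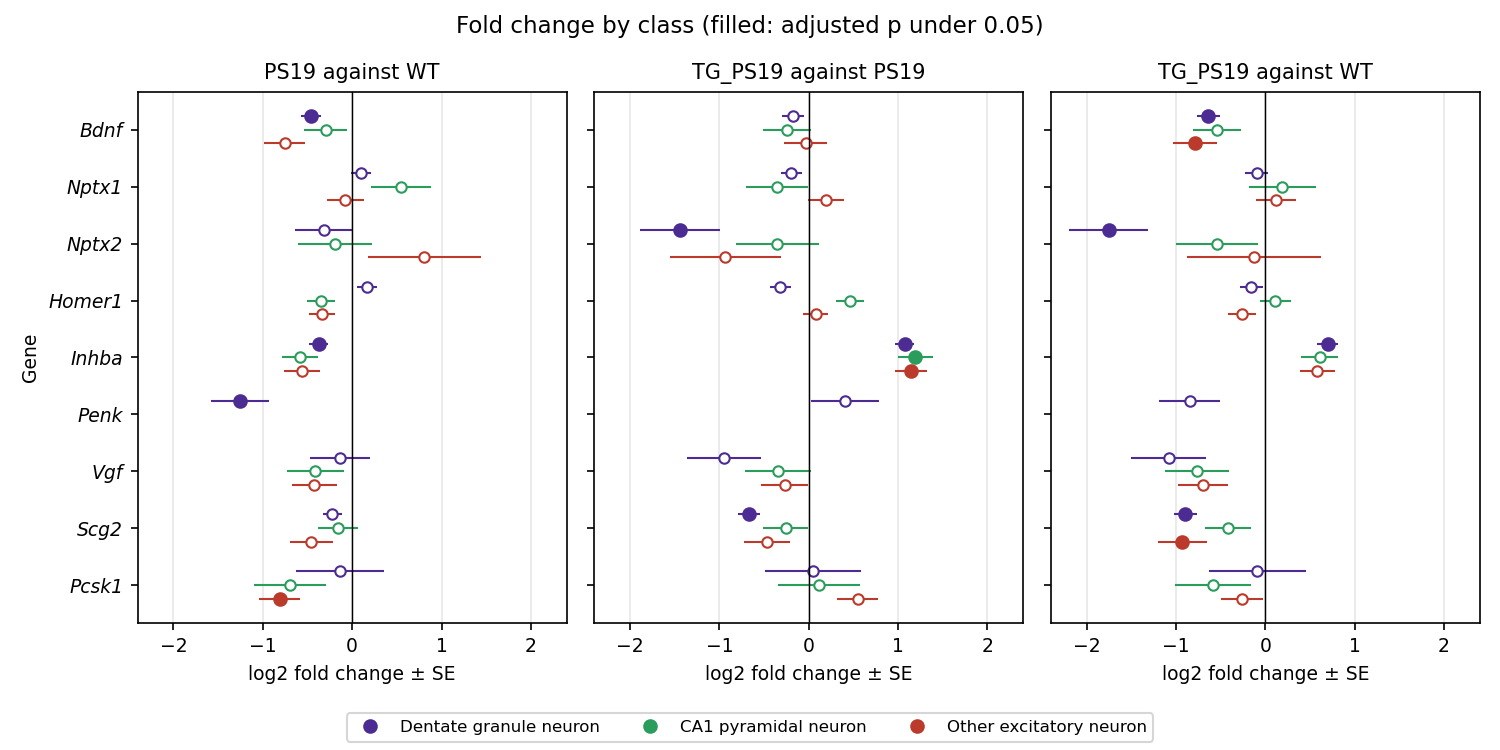
Log2 fold change (points) with its standard error (bars) of each gene in 3 excitatory classes and 3 comparisons, filled where the adjusted p is under 0.05. Penk was tested in dentate granule nuclei alone of these classes. Inhba lies right of 0 in all 3 classes for TG_PS19 against PS19, from 1.07 to 1.19.

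Homer1 gave the smallest adjusted p of a difference between classes. In dentate granule nuclei it was at 77.8, 89.7, 82.8 and 64.5 CPM in WT, the PS19 libraries and TG_PS19, with TG_PS19 lowest. A single nucleus held 80 of the 398 Homer1 UMIs of PS19 replicate 1, and without it that library was at 71.8 CPM (64.1 to 80.1), below WT. In CA1 nuclei it was at 348, 276, 289.5 and 359 CPM, with TG_PS19 highest. TG_PS19 against PS19 gave -0.32 (SE 0.12, edgeR adjusted p = 0.0765) and 0.46 (SE 0.16, edgeR adjusted p = 0.109), and without that nucleus the dentate value was -0.17 (edgeR adjusted p = 0.457). The Y-called TG_PS19 nuclei had 73.8 CPM in dentate granule and 368 CPM in CA1 nuclei. Fitted together, the dentate granule change was lower than that of CA1 by a log2 value of 0.74 (SE 0.18), which did not pass over all genes (edgeR adjusted p = 0.103), and the difference was -0.60 without that nucleus (edgeR adjusted p = 0.547). None of 81 such tests of the 9 genes between pairs of excitatory classes passed (5 at an unadjusted p under 0.05), beside 0.0627% of all genes, so no gene's response was shown to differ between classes. These tests took the classes of a library as independent and had no term for the library that they share.

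TG_PS19 against WT compares 2 lone libraries, with the spread taken from the PS19 pair, and shares a library with each comparison above. Here 6 of 37 pairs were called, 1 higher and 5 lower, beside 2.76% of all pairs. They were 4 of 9 in dentate granule nuclei (Bdnf, Nptx2 and Scg2 lower, Inhba higher; 5.95% of all genes) and 2 of 8 in other excitatory nuclei (Bdnf and Scg2 lower; 3.18%). None was called in CA1 (1.38%), inhibitory (0.436%) or Cajal-Retzius-like nuclei (0.285%), with 3, 2 and 0 at an unadjusted p under 0.05. Bdnf gave -0.64 (SE 0.13, edgeR adjusted p = 7.6e-05) in dentate granule nuclei and -0.79 (SE 0.25, edgeR adjusted p = 0.0486) in other excitatory nuclei. In dentate granule nuclei the call of Bdnf was also lost with DESeq2 and after thinning, and in other excitatory nuclei it was kept in 4 of 11 alternatives, with -0.35 in the subicular or cortical clusters alone. Of these 2 clusters, 1 was at 50.3 CPM of Bdnf in WT and 35.8 CPM in TG_PS19, the other at 4.68 and 8.32 CPM. The Bdnf-poor cluster held 69 of 292 nuclei of the class in WT and 126 of 392 in TG_PS19. The CA3 or hilar cluster was at 46.7 and 16.4 CPM. The part of this mix in the call was not tested. Bdnf lost both calls with the Y-called TG_PS19 nuclei alone, where the dentate level was 68.0 CPM (56.8 to 80.8), beside 56.6 CPM (50.6 to 63.1) in the Xist-called nuclei. Scg2 in other excitatory nuclei was at 31.6, 23.7, 23.8 and 16.2 CPM, with -0.93 (SE 0.27, edgeR adjusted p = 0.0319), a call kept in 8 of 11 alternatives, and the Y-called nuclei of this class had 11.2 CPM.

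**Figure D4:**
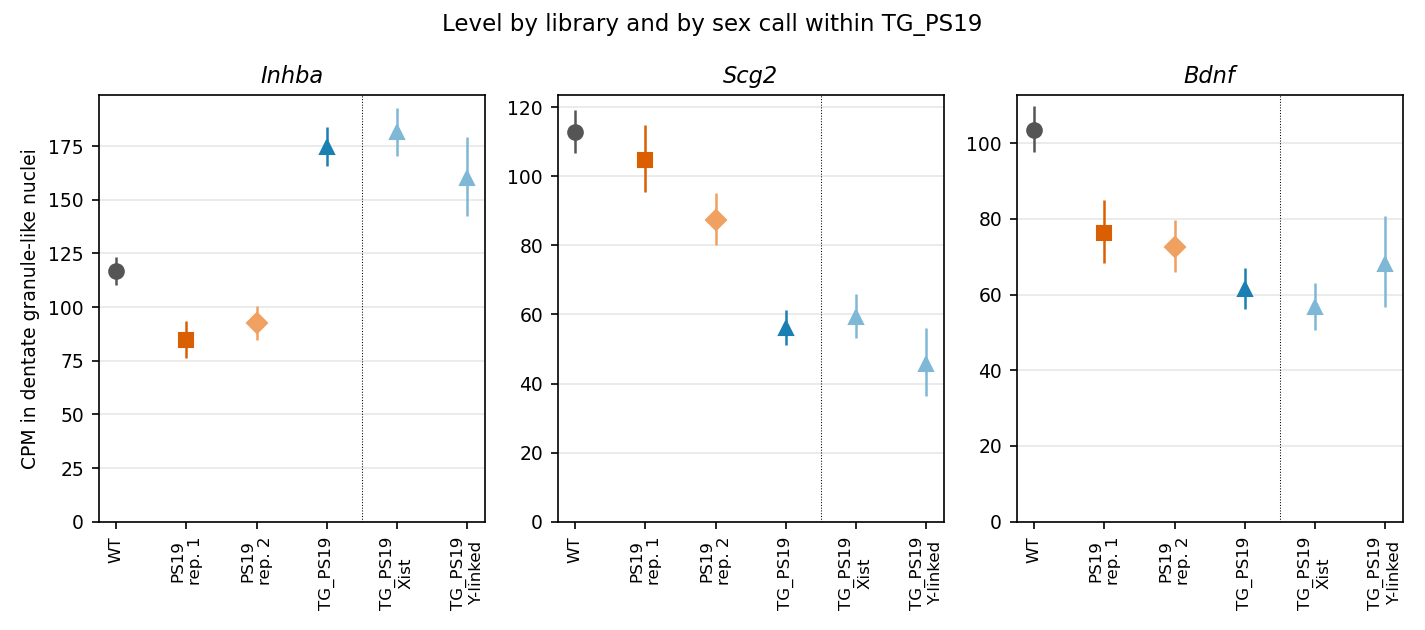
Level in CPM of Inhba, Scg2 and Bdnf in dentate granule nuclei of each library and, right of the dotted line, in the TG_PS19 nuclei called by Xist or by Y-linked UMIs (bars are exact 95% Poisson intervals). Inhba is at 181 and 160.1 CPM in the Xist-called and Y-called nuclei, both above the 117 CPM of WT.

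Immediate early genes encode the factors that come before the late genes. Of 25 listed, 74 gene and class pairs were tested: 4 fell in PS19 against WT, 1 rose and 7 fell in TG_PS19 against PS19, and 8 fell in TG_PS19 against WT, that is 5.41%, 10.8% and 10.8% of the pairs, beside 1.22%, 4.08% and 2.76% over all genes. With the Y-called nuclei alone, 8 of the 8 calls against PS19 and 8 of the 8 against WT had the same sign, and 1 and 2 were called. In CA1 nuclei Npas4, an activity-dependent transcription factor, was at 28.6, 9.33, 14.2 and 25.1 CPM in WT, the PS19 libraries and TG_PS19, the PS19 pair being lowest. It fell in PS19 (-1.31, SE 0.34, edgeR adjusted p = 0.0248) and was higher in TG_PS19 than in PS19 (1.19, SE 0.36, edgeR adjusted p = 0.042). Arc, a synaptic protein whose RNA travels to dendrites, and Egr4 fell in PS19 CA1 nuclei too, by 1.13 and 1.38 on the log2 scale, and Npas4 fell in PS19 other excitatory nuclei by 1.56. The median over the list in CA1 was -0.70 for PS19 against WT, where that of all genes was 0.00895.

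In other excitatory nuclei 4 of 21 listed genes fell in TG_PS19 against PS19, where Inhba rose and 4.34% of all genes were called. Arc was at 24.2, 26.2, 16.9 and 8.44 CPM in WT, the PS19 libraries and TG_PS19, the last being lowest. Arc, Jun and Btg2 fell there against PS19, by 1.23, 1.22 and 0.97 on the log2 scale, and Junb was the fourth gene called. In dentate granule nuclei Gadd45g, Btg2 and Jun fell, and the list's median was -0.70 against -0.00707 for all genes. Against WT, Egr4 (-2.70), Ier2 (-2.59), Arc (-1.48) and Junb (-0.90) fell in TG_PS19 other excitatory nuclei and Btg2 (-2.10) in CA1 nuclei. Levels were low: Egr4 and Ier2 were at 8.27 and 7.68 CPM in WT and both at 1.21 CPM in TG_PS19. Btg2 was at 16.1 CPM in WT and 3.53 CPM in TG_PS19. With the Y-called nuclei alone Arc kept this call, and Egr4, Ier2, Junb and Btg2 did not.

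Of 19 other late activity-regulated genes, 50 pairs were tested, of which 2, 3 and 2 were called in PS19 against WT, TG_PS19 against PS19 and TG_PS19 against WT, beside 1.22%, 4.08% and 2.76% over all genes. Sorcs3, a sorting receptor of the family of SORLA, was at 148, 99.1, 89.8 and 117 CPM in dentate granule nuclei of WT, the PS19 libraries and TG_PS19. It fell in PS19 (-0.63, SE 0.11, edgeR adjusted p = 1.1e-06) and rose in TG_PS19 against PS19 in dentate granule (0.41) and CA1 nuclei (0.54). Mapk4, an atypical MAP kinase, fell in PS19 dentate granule nuclei by 0.48 on the log2 scale, and Frmd6 fell by 0.48 in TG_PS19 against PS19. These 5 pairs were the only ones called in both comparisons together, and in TG_PS19 against WT Mapk4 (-0.56) and Frmd6 (-0.59) fell in dentate granule nuclei. With the Y-called nuclei alone Sorcs3 in dentate granule nuclei was at -0.07 against PS19, the sign turned, and was not called, nor was it in CA1. Over the 50 pairs the medians were -0.06, -0.12 and -0.15 for PS19 against WT, TG_PS19 against PS19 and TG_PS19 against WT.

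Among 28 receptors and partners (112 pairs), Oprm1, the μ-opioid receptor on which enkephalins act, had the largest change of the list's calls in TG_PS19 against PS19. It was at 73.0, 52.5, 50.6 and 162 CPM in other excitatory nuclei of WT, the PS19 libraries and TG_PS19, with a log2 fold change of 1.74 (SE 0.15, edgeR adjusted p = 9.3e-23). In dentate granule nuclei it fell in PS19 (-0.43) and rose in TG_PS19 against PS19 (0.89). Fst, which encodes the activin-binding protein follistatin, fell in TG_PS19 dentate granule nuclei from 5.41 and 9.84 CPM to 3.504 CPM (-1.07, SE 0.35, edgeR adjusted p = 0.0289). WT was at 5.75 CPM of Fst, and without PS19 replicate 2 the value against PS19 was -0.52. Smad3, which carries activin signals to the nucleus, rose against PS19 in TG_PS19 dentate granule nuclei (0.47), and Ntrk2, the BDNF receptor TrkB, rose in CA1 (0.57). Nptxr, the membrane-bound pentraxin that partners Nptx1 and Nptx2, fell in PS19 dentate granule nuclei (-0.50), where Homer2 (0.51) and Acvr1 (0.34) rose. In all, 2 pairs rose and 2 fell in PS19 against WT (3.57% called, beside 1.22% of all pairs). In TG_PS19 against PS19 5 rose and 1 fell (5.36%, near the 4.08% of all pairs). In TG_PS19 against WT 7 rose and 1 fell (7.14%, beside 2.76%), among them Oprd1 (0.98) and Shank2 (0.53), which rose in other excitatory nuclei. With the Y-called nuclei alone 4 of the 6 calls against PS19 were kept, both of Oprm1 and that of Fst among them, and 4 of the 8 against WT. Fst was then at -8.53, a size that comes from few or no UMIs in those nuclei. Smad3 (0.12) and Ntrk2 (0.49) were not called against PS19.

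Of 14 granins and genes of peptide processing (67 pairs), Chgb, a granin like Scg2, fell in PS19 dentate granule nuclei from 116 CPM in WT to 86.3 and 65.5 CPM (-0.61, SE 0.11, edgeR adjusted p = 7.9e-06). It was the 1 pair called in that comparison (1.49%, beside 1.22% of all pairs). Pcsk1n, which encodes an inhibitor of the Pcsk1 convertase, fell in TG_PS19 dentate granule nuclei against PS19 by 0.44 and against WT by 0.67 on the log2 scale. Pcsk5 rose (0.32) against PS19, and Cadps2, a factor of dense-core vesicle release, fell in other excitatory nuclei (-0.54). These were 3 of the 67 pairs (4.48%, near the 4.08% of all pairs). Against WT, 0 rose and 4 fell in TG_PS19 (5.97%, beside 2.76%), Chgb and Cadps2 in other excitatory nuclei among them (-0.65 and -0.89). With the Y-called nuclei alone 2 of the 3 and 3 of the 4 calls were kept. Of 18 genes of activity signalling (83 pairs), the kinases Camk4 (0.67) and Camk2a (0.36) rose in PS19 dentate granule nuclei (2.41% of pairs, beside 1.22%). In TG_PS19 against PS19 2 pairs were called (2.41%, beside 4.08%). Mef2c rose in CA1 nuclei (0.63), a call lost with the Y-called nuclei. Grin2a in Cajal-Retzius-like nuclei was called lower (-1.80), but the PS19 values of 25.2 and 219 CPM lay on either side of the 35.4 CPM of TG_PS19, and without PS19 replicate 2 the value was 0.55. None was called in TG_PS19 against WT.

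The genes whose levels ran most like each member over 48 profiles (12 classes by 4 libraries, log scale) were searched among 7284 genes. Inhba ran most like Egfem1 and Syt17 (Pearson r 0.94 for both), Bdnf like Zfp831 and the vesicular zinc transporter Slc30a3 (0.91 for both) and Nptx1 like Olfm1 (0.87) and its partner Nptxr (0.84). Vgf ran like 4933413L06Rik (0.92), Pcsk1 like Gm32647 (0.93) and Gm17171 (0.91), and Penk like Gm10475 (0.90) and Cacna2d2 (0.88). Homer1 ran like R3hdm1 and Gm44643 (0.89 for both), Scg2 like Atp1b1 (0.83) and C1qtnf4 (0.82), and Nptx2 like Fam57b (0.83) and Mapk8ip2 (0.82). The profiles share libraries and depth within a class, so these values only describe likeness.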

How the data were processed

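UMI counts per gene and nucleus were used as deposited; the authors made them with Cell Ranger 7.1.0 on GRCm38, per the submitters' processing notes, and strand and intron settings are not given in the sources used here. Libraries were prepared with a 10x Genomics 3′ kit, per the labels' protocols. The other deposited files list feature and barcode names and hold no measurement.

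Nuclei with at least 500 UMIs, 300 genes and at most 5% mitochondrial UMIs were kept. Doublets were scored within each library against simulated doublets and removed at 0.8% per 1000 nuclei (172 to 1303 per library). The 30 leading principal components of 2000 variable genes, without the 9 genes and the companion lists, were clustered (leidenalg 0.10.2, resolution 1.0, Python 3.11.15). Clusters were named from marker lists by a rule set after the clusters had been seen, and a name means resemblance. Classes with at least 50 nuclei in every library were tested. Sums per class and library entered edgeR 4.0.16 in R 4.3.3 (low-count filter, TMM scaling, quasi-likelihood F-test, two-sided) over all 4 libraries. The PS19 pair gave the 1 residual degree of freedom, so the lone WT and TG_PS19 libraries were assumed to vary like that pair, which differed by more than sampling noise in every class (chi-square per degree of freedom 1.78 to 2.29). DESeq2 was an alternative. The code was tested on simulated data. Shares have exact (Clopper-Pearson) intervals. A gene's like-pattern partners are the 2 with the highest correlation (1 is not reported here), and of each companion list up to 5 called pairs with the largest change per comparison are named; Junb in TG_PS19 against PS19 and Btg2 and Jun in dentate granule nuclei were named after their values had been seen. The 9 genes, the lists and the tests were chosen with earlier results of these data known.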

Additional observations from a re-analysis of the deposited data

How the results depend on the processing

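The signs of the 15 calls, each of a gene, class and comparison, held under every alternative run. Some pairs of gene and class are counted in more than 1 comparison. Of all 1400 alternative values, 67 changed sign, 0 of them where a call was made. The calls that held in every alternative with an adjusted p were Inhba and Scg2 in dentate granule nuclei for TG_PS19 against PS19 and against WT (4 of 15). The count of calls changed by over 1.5 times under DESeq2, to 0 for PS19 against WT (2 at an unadjusted p under 0.05, beside 12 by edgeR), 2 for TG_PS19 against PS19 and 2 for TG_PS19 against WT, and with each nucleus thinned to 2000 UMIs, to 3 for TG_PS19 against PS19 and 2 for TG_PS19 against WT. Otherwise the 3 counts stayed at 3 to 4, 4 to 7 and 4 to 8, in that order, and the cause of the changes was not tested. DESeq2 gave no adjusted p for 2 of the calls of TG_PS19 against PS19 and 3 of those against WT. The call of Bdnf in other excitatory nuclei was kept in 4 of 11 alternatives and that of Pcsk1 in 4 of 12. Leaving out a PS19 library gives a value with no test: Inhba in dentate granule nuclei then lay between 1.00 and 1.16 and Nptx2 between -1.83 and -1.02 for TG_PS19 against PS19. The restriction to subicular or cortical clusters, the tests between classes, the inhibitory class without its glia-led sub-clusters and Homer1 without 1 nucleus were chosen after seeing the data. The alternative with Y-called nuclei could not be run in Cajal-Retzius-like nuclei (17 nuclei), nor that with nuclei of at least 2000 UMIs in inhibitory nuclei (49 in PS19 replicate 1). No paired analysis between groups was possible because only the PS19 libraries carry replicate numbers. The tests between classes did not use the pairing of classes within a library. Penk, Nptx2 and Vgf in dentate granule nuclei and most genes in inhibitory and Cajal-Retzius-like nuclei had too few UMIs to show moderate differences.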
